A study of Homo sapiens with 12 samples.

Results

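Intervals of GATA1 and TAL1 occupancy in control K562 cells were examined at 4 genes of loci associated with fetal globin. These genes lie in 3 windows of the human genome (build hg19). The windows were chr2:60670001-60800000 for BCL11A (130 kb), chr6:135270001-135550000 for HBS1L and MYB (280 kb) and chr19:4035001-4077000 for ZBTB7A (42 kb). An interval was a member if it overlapped a window in either list, and it was called shared if the same start and end stood in both lists. There were 18 members among the 24658 distinct intervals of both lists. All 18 lay in the HBS1L and MYB window, and the lists used here had 0 in the BCL11A window and 0 in the ZBTB7A window. Whether the lists as used here are complete at these loci is not known, so an empty window describes these lists and not the state of the locus.

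K562 is a human erythroleukemia line whose cells make embryonic and fetal rather than adult hemoglobin. Chromatin immunoprecipitation and sequencing (ChIP-seq) was done on chromatin cut with micrococcal nuclease, per the labels' protocols, with antibodies against GATA1, TAL1, LDB1 and acetylated histone H3 (H3K27ac). The study's 12 libraries, with 1 of unprecipitated input, came from control K562 and from K562 in which GATA1 or TAL1 was knocked down by an shRNA delivered with a lentivirus, and the labels do not say what vector the control cells carried. The 2 lists examined are those for GATA1 and for TAL1 in the control, with 1 library per factor. The other 10 libraries were not analysed here, so nothing below measures a knockdown.

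The globin genes expressed in red cells switch from fetal to adult forms around birth, and a small set of regulators keeps the fetal genes off afterwards. BCL11A and ZBTB7A are zinc finger repressors that act on the fetal globin genes. MYB is a transcription factor that keeps erythroid progenitors dividing and lowers fetal globin, and HBS1L, the gene beside it, encodes a factor that rescues stalled ribosomes. Common variants between HBS1L and MYB and in an intron of BCL11A are associated with the level of fetal hemoglobin. GATA1 and TAL1 are erythroid transcription factors that meet on many enhancers. GATA1 reads GATA motifs and TAL1, with its partner proteins, reads E-boxes.

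The promoters of the 4 genes are shown as background sequence, and they were not linked to the presence or absence of intervals. They are the 250 bases before the outermost start of each gene in RefSeq, build GRCh38, written 5′ to 3′ on the strand of the gene. All 4 genes matched the RefSeq table by symbol. Capitals would mark a GATA motif (AGATAA or AGATAG or TGATAA or TGATAG) or an E-box (CANNTG) on either strand. The sequences are:
BCL11A (chr2:60553925-60554174, minus strand): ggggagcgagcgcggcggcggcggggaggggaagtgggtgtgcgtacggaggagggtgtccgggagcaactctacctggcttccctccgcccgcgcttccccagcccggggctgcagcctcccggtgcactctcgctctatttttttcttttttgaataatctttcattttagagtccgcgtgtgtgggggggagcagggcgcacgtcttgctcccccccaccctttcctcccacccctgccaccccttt
ZBTB7A (chr19:4066900-4067149, minus strand): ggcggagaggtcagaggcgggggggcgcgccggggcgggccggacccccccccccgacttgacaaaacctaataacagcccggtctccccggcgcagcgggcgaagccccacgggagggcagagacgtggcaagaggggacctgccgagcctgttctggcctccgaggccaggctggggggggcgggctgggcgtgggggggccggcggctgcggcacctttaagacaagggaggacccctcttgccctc
HBS1L (chr6:135054823-135055072, minus strand): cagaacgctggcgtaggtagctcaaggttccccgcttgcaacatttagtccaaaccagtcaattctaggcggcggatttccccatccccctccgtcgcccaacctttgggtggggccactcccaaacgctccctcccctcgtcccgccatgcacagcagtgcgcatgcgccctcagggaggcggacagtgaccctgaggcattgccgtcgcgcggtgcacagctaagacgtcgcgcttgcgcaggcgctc
MYB (chr6:135181058-135181307, plus strand): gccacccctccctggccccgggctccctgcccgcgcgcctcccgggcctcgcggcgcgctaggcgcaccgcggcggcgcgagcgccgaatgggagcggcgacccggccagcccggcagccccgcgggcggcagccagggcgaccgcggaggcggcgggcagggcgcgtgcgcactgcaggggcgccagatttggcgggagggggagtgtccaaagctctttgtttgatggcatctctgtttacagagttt

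No capital stands in any of the 4, because 0 GATA motifs and 0 E-boxes were found in these sequences. RefSeq listed 5 promoters for BCL11A and 2 for ZBTB7A, and only that at the outermost start was searched. The comparison set was 34788 distinct RefSeq promoter sequences of the same length, other promoters of the same gene included. Of these, 22.4% held a GATA motif, 61.8% an E-box and 31.1% neither. A composite of CTG, 7 or 8 bases of any kind and a GATA motif was also absent from the 4 promoters, and 1.16% of all promoters held it. The GC content was 64.8% for BCL11A, 74.4% for ZBTB7A, 64% for HBS1L and 75.6% for MYB, all above the median of 58% over all promoters. These letters come from another build than the intervals, so no interval was placed on a promoter, and no base sequence of an interval is given.

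Of the 3 loci, HBS1L and MYB alone held intervals. The HBS1L and MYB window held 18 intervals, or 6.43 per 100 kb, against 1.26 per 100 kb over chromosome 6 and 0.812 over chromosomes 1 to 22 and X. Its intervals covered 1.95% of the window, against 0.264% of those chromosomes. Chromosomes 2 and 19 held 0.706 and 1.79 intervals per 100 kb, while the BCL11A and ZBTB7A windows had none. There was 1 library per factor, so no value has a replicate error and no test was made. The lists give no read numbers, so depth is unknown.

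**Figure D1:**
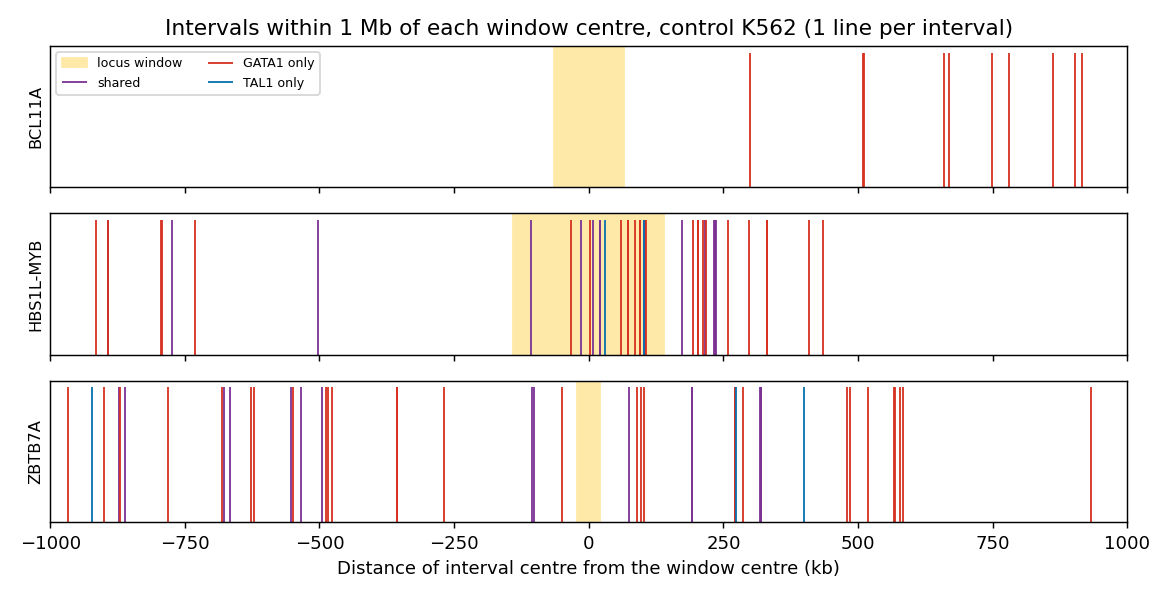
Each line is 1 interval, placed by the distance of its centre from the window centre in kb, for the 3 loci; colours give the class and the shaded band is the window. The 2 Mb around BCL11A held 10 intervals, all GATA1 only and all on 1 side, and those around the HBS1L and MYB and the ZBTB7A windows held 43 and 47. In the whole lists 15740 of 24654 intervals were GATA1 only.

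Both factors were found in the HBS1L and MYB window. The GATA1 list had 16 intervals there and the TAL1 list 9. Of the 18 distinct intervals, 7 were shared, 9 were in the GATA1 list alone and 2 in the TAL1 list alone. In the whole lists these classes held 7029, 15740 and 1885 of 24654 intervals. HBS1L lies at the lower coordinates and MYB at the higher ones, as in the order of genes in RefSeq, where ALDH8A1 precedes HBS1L and AHI1 follows MYB. A stretch of intergenic enhancers, chr6:135410001-135500000, divides the window into 3 parts. The 140 kb before it, on the HBS1L side, held 3 intervals (2.14 per 100 kb). The 90 kb of the stretch held 9 (10 per 100 kb). The 50 kb beyond it, on the MYB side, held 6 (12 per 100 kb). Some neighbours were split by gaps as small as 37 bp on the MYB side and 102 bp in the stretch. Close intervals were not joined by part, so the order of these densities holds for listed intervals only. No annotation of build hg19 was used here, so an interval is described by its side of the stretch and not by exon or intron.

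**Figure D2:**
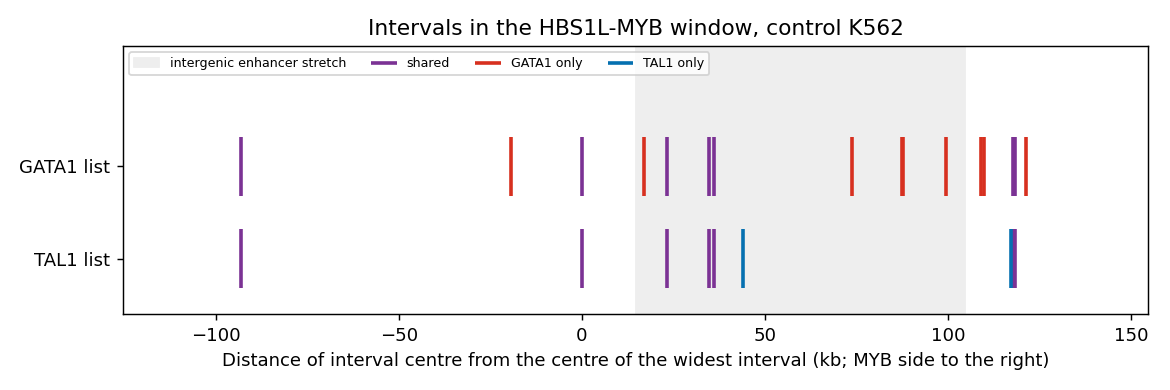
Each line is 1 interval of the HBS1L and MYB window in the GATA1 list (upper row) or the TAL1 list (lower row), placed by its distance in kb from the centre of the widest interval; line thickness is not to scale. The shaded enhancer stretch held 3 shared, 5 GATA1-only and 1 TAL1-only interval, with those of TAL1 all in its HBS1L-ward part.

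On the HBS1L side, 2 of the 3 intervals were shared. The shared interval nearest the edge of the window, chr6:135301958-135302377, was 420 bp wide and stood 73.4 kb from its nearest neighbour, the longest gap in the window. The widest interval of the locus, chr6:135395031-135395692, was also shared and measured 662 bp, wider than 93% of all shared intervals. Between them lay a GATA1-only interval of 535 bp, chr6:135375810-135376344, wider than 90.5% of its class and 18.7 kb from the nearest TAL1 interval. This side thus held few intervals, and each was wider than the median of its class.

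In the enhancer stretch all 3 shared intervals and the TAL1-only interval lay on the HBS1L-ward side. The intervals on the MYB-ward side were in the GATA1 list alone. In the whole lists only 30.9% of GATA1 intervals were also in the TAL1 list, and this split was not tested. The stretch began with a narrow GATA1-only interval of 134 bp at chr6:135412156-135412289. The shared interval chr6:135418289-135418676, 388 bp wide, followed 6 kb on. Next came a close pair of shared intervals, chr6:135429898-135430133 (236 bp, the narrowest shared interval of the locus) and chr6:135431308-135431696 (389 bp), with 1.17 kb between them. These 3 were the shared intervals of the stretch. The TAL1-only interval chr6:135439259-135439575, 317 bp wide, lay 7.56 kb beyond the pair, and that was also the distance to the nearest GATA1 interval.

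Beyond that TAL1-only interval the TAL1 list held nothing more in the stretch, while the GATA1 list held 4 further intervals. A GATA1-only interval of 334 bp stood at chr6:135468898-135469231, 29.3 kb from the nearest TAL1 interval. A pair at chr6:135482655-135482739 (85 bp, the narrowest GATA1 interval of the locus) and chr6:135482842-135483071 (230 bp) was separated by 102 bp. The last, chr6:135494793-135494926, measured 134 bp. The member farthest from any TAL1 interval among those in the GATA1 list alone was the 85 bp one, at 29.9 kb.

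On the MYB side, intervals were close together and of all 3 classes. GATA1 alone was listed at chr6:135504238-135504328 (91 bp) and, 597 bp on, at chr6:135504926-135505381 (456 bp, wider than 83.8% of its class). TAL1 alone was listed at chr6:135512653-135512737. That interval was 85 bp wide, the smallest width in either list, which 579 intervals had, 39 of them in the TAL1 list alone. It lay 37 bp from a shared interval, and 37 bp was the smallest gap between neighbours anywhere in the lists (32 of 24631 gaps). Whether it is a site apart from its neighbour was not tested, since the lists give no height or summit.

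The shared pair on the MYB side was chr6:135512775-135513272 (498 bp, wider than 76.2% of shared intervals) and chr6:135513359-135513698 (340 bp), 86 bp apart. With the TAL1-only interval they made a run of 3 intervals across which both factors were listed. A GATA1-only interval of 113 bp, chr6:135516717-135516829, lay 3.02 kb further and was the last of the window.

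Sharing at the locus was within counting error of that in the whole lists. Of the 16 GATA1 intervals, 7 (43.8%, exact 95% interval 19.8 to 70.1%) were also in the TAL1 list, against 30.9% of all 22769 GATA1 intervals. Of the 9 TAL1 intervals, 7 (77.8%, 40 to 97.2%) were also in the GATA1 list, against 78.9% of all 8914 nuclear TAL1 intervals. These Clopper-Pearson intervals cover counting error alone and treat neighbouring intervals as independent. By part, 2 of 3 GATA1 intervals before the stretch, 3 of 8 within it and 2 of 5 beyond it were shared, counts too small to set apart.

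Most of the GATA1 intervals without TAL1 at this locus were narrower than the median of their class. The contrast rests on 9 intervals and was not tested. Those of 85 and 91 bp stood 102 and 597 bp from wider GATA1-only neighbours. Among all 9 GATA1-only intervals, widths ran from 85 to 535 bp with a median of 134 bp. The median was 264 bp for the 15740 GATA1-only intervals of the lists, and 3 of the 9 were above it. The 7 shared intervals ran from 236 to 662 bp with a median of 389 bp, against 373 bp, and 5 were above it. None of the 5 GATA1 intervals under 200 bp was shared (0%, exact 95% interval 0 to 52.2%), against 13.8% of such intervals in the whole lists. Of the 11 that were at least 200 bp wide, 63.6% were shared (30.8 to 89.1%), against 37.2%. Both whole-list shares lie within these intervals, so neither difference exceeds counting error. A shared interval has 1 width for both factors, and the labels do not say how the common boundaries were made, so width is not a measure of either factor's binding.

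**Figure D3:**
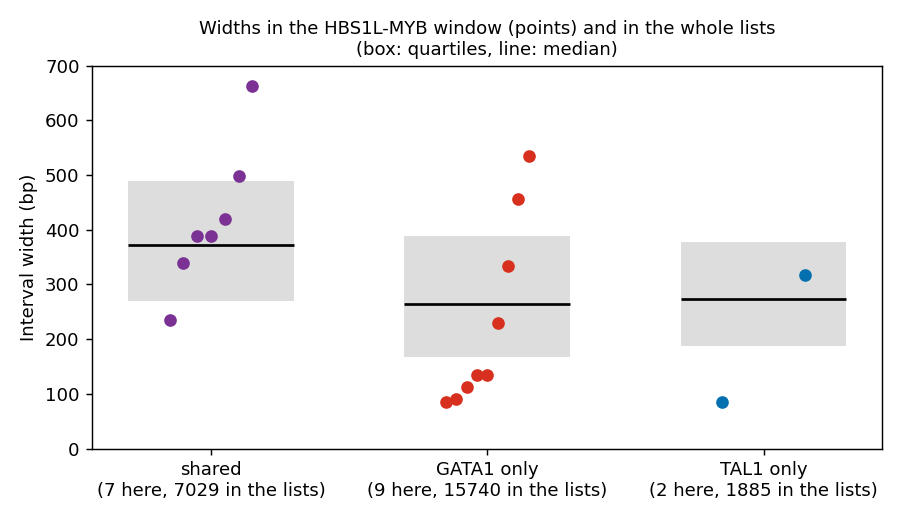
Points are the widths in bp of the 18 intervals of the HBS1L and MYB window by class, boxes the quartiles and lines the medians of the same class in the whole lists. The GATA1-only points reach from 85 to 535 bp with 6 of 9 below the class median, and 5 of 7 shared points lie above theirs.

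Intervals at the locus were closely spaced, which restates their density. Gaps were taken only between the 18 intervals inside the 280 kb window, so none could be longer than the window. The median of the 17 gaps was 7.56 kb, against 19.6 kb between neighbours in the whole lists, where no such limit held. Of the 18, 9 (50%) had a neighbour within 2 kb, against 34% of all intervals. No counting interval was computed for that share, and the difference was not tested. All 9 GATA1-only intervals lay nearer to a TAL1 interval than the median of their class (37.8 kb), at 3.02 to 29.9 kb with a median of 17.7 kb. Both TAL1-only intervals lay nearer to a GATA1 interval than the median of their class (13 kb). Dense spacing of either list shortens such distances, and its part in them was not tested.

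There were 4 pairs of neighbouring GATA1 intervals within 2 kb, 2 with both shared and 2 with both GATA1 only. All 4 were thus alike in TAL1 status (exact 95% interval 39.8 to 100%), against 73.5% of 4115 such pairs in the whole lists, so the locus was not set apart by them. This count was chosen after the values were seen. The shared pairs were the close pair in the enhancer stretch and the pair on the MYB side, and the GATA1-only pairs were that of the stretch and that on the MYB side.

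Joined across gaps of at most 10 kb, the 18 intervals formed 8 groups, 4 of which were single intervals. In the whole lists 66% of 15417 groups were single intervals, and 41.2% of all intervals stood alone. The largest, chr6:135494793-135516829, held 7 intervals in 22 kb, with 6 of GATA1, 3 of TAL1 and 2 shared. It takes in the last interval of the enhancer stretch and every interval of the MYB side. As many intervals or more were found in 0.765% of the 15417 groups of the lists. The next, chr6:135429898-135439575, held 3 intervals in 9.68 kb, 2 shared and 1 TAL1 only, and 13.6% of groups were at least that large. It was the only group of the locus with more TAL1 than GATA1 intervals.

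Set beside adjoining windows of the same length along chromosomes 1 to 22 and X, the HBS1L and MYB window was among the richest. As many intervals or more were found in 0.868% of 10835 windows of 280 kb, with a median window of 0 and a highest of 35. For the lists taken singly, 1.19% of windows had at least 16 GATA1 intervals and 0.489% at least 9 TAL1 intervals, and 0.84% had at least 7 shared ones. The share of windows with 18 or more was 3.6% on chromosome 6 alone and 1.3% on its long arm. The window was drawn around known enhancers and the compared windows lie on a fixed grid, so these shares describe the locus and are not p-values.

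**Figure D4:**
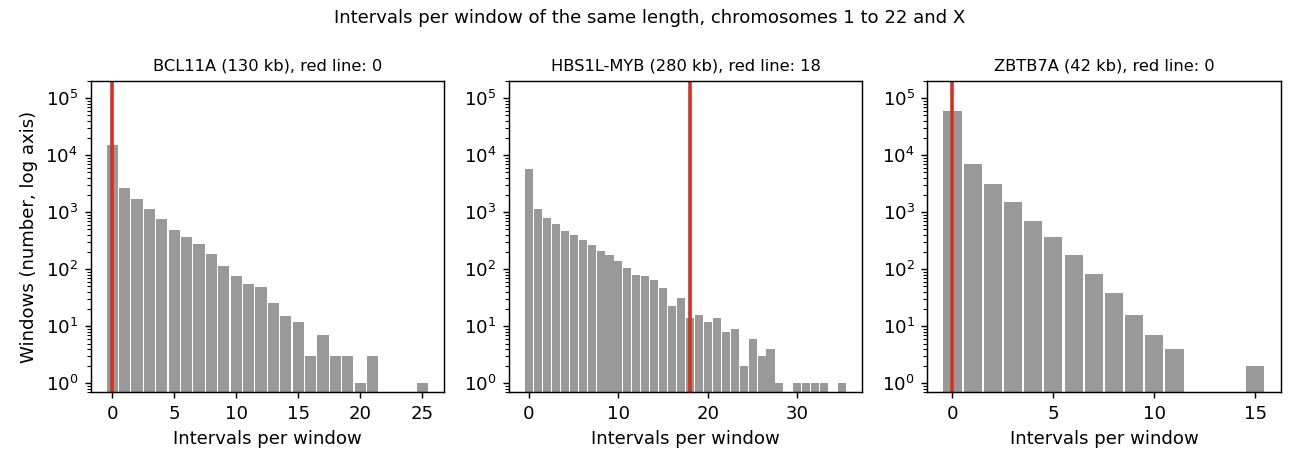
Bars count adjoining windows of the length of each locus (log axis) by the number of intervals they hold, and the red line marks the locus. BCL11A and ZBTB7A stand at 0, the commonest value, and HBS1L and MYB at 18, in the far tail.

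In the lists as used here, which may be incomplete, BCL11A lay in a long stretch without intervals of either factor. The window holds an enhancer stretch that is active in adult erythroid cells, chr2:60717001-60726000, and neither list had an interval in its 9 kb, nor in the 47 kb before it or the 74 kb beyond it. The interval before the window was a shared one at chr2:58958589-58958941, 1711 kb away, and the next was GATA1 only, at chr2:61034119-61034633, 234 kb away. Together they bound 2075 kb without an interval. Of 24677 such stretches between neighbours or chromosome ends, 250 were at least as long, and they made up 33.5% of chromosomes 1 to 22 and X, assembly gaps included. The TAL1 list alone had nothing for 3060 kb.

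An empty window of this length was common. Of 23344 windows of 130 kb, 65.9% held no interval. The 2 Mb centred on the BCL11A window held 10 intervals, the median for 2 Mb, all 10 of them GATA1 only. So 0% of GATA1 intervals there were shared (exact interval 0 to 30.8%), against 30.9% in the whole lists. The whole-list share lies barely above that interval, which treats neighbouring intervals as independent. The difference rests on 10 intervals and was not tested. All 10 lay at higher coordinates than the window. The absence from a list does not show that a factor was not bound, since the calling threshold, the depth and the completeness of the lists used here are not known.

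The ZBTB7A window held no interval in the lists as used here, with the same limit on completeness, while intervals were frequent around it. The nearest interval before the window was GATA1 only, at chr19:4005662-4005803, 29.2 kb away, and the nearest beyond it was shared, at chr19:4130684-4131309, 53.7 kb away. The free stretch measured 125 kb for both lists and 177 kb for TAL1. The 2 Mb around the window held 47 intervals, more than 92.4% of the 1507 windows of 2 Mb, with 44 of GATA1, 18 of TAL1 and 15 shared. Of the GATA1 intervals there, 34.1% were shared (exact 95% interval 20.5 to 49.9%), within counting error of the 30.9% in the whole lists. Empty windows of 42 kb made up 81.8% of 72281 along the chromosomes and 53.3% on the short arm of chromosome 19.

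BCL11A and ZBTB7A thus had the same count in windows with unlike surroundings, and the 2 Mb around HBS1L and MYB resembled those around ZBTB7A in number. The 2 Mb around HBS1L and MYB held 43 intervals, 41 of GATA1, 18 of TAL1 and 16 shared. So 39% of GATA1 intervals there were shared (24.2 to 55.5%), within counting error of the 30.9% in the whole lists. Of these 43, 18 were in the 280 kb window itself.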

How the data were processed

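ChIP-seq lists of GATA1 and TAL1 in control K562 cells were used, with 1 library each (0.5 ng of ChIP DNA and 12 amplification cycles, per the labels' protocols). The title of the TAL1 library carries the letters Sp and that of the GATA1 library does not. What the letters mark was not established here, and any such difference cannot be told apart from the factor. Each list gives chromosome, start and end in 3 columns without a header. Trimmomatic, Bowtie2, MACS2, deepTools and build hg19 are named per the submitters' processing notes. For versions, thresholds and pooling nothing is given in the sources used here. Per the files as deposited, the lists hold no score, count or summit, so depth and strength of an interval are unknown.

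Starts were counted from 1. Classes, gaps, windows and exact intervals were computed in Python 3.11.15 with numpy 2.4.6, pandas 2.3.3 and scipy 1.17.1, and figures drawn with matplotlib 3.10.9. Joining and classes were tested on simulated lists. Comparisons used chromosomes 1 to 22 and X, with hg19 lengths from GenomeInfoDb and bands from circlize. No test was made, since each factor had 1 library. The members and settings were chosen with earlier results of these data known. Every interval in the windows is described. Promoters came from RefSeq (GRCh38). Motifs in intervals, positions relative to genes and other fetal globin regulators were not analysed here, because no hg19 genome or annotation was used. Alternatives were other memberships, overlaps, widths, joins and window sets.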

Additional observations from a re-analysis of the deposited data

How the results depend on the processing

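Of 33 alternatives, 22 left the value within its counting interval or within 1.5 times the count, 11 moved it and 0 reversed it. Some of the 22 could not have differed. An empty window stays empty when intervals are placed by midpoint, filtered by width or joined to sites. No neighbours in the lists overlapped in part, so an overlap of at least 1 bp gave the same classes as exact matching. The alternatives by chromosome arm and without centromeric, variable and stalk bands were added after the data were seen. The ZBTB7A window, widened by 50 kb on each side, held 1 interval in place of 0, and the BCL11A window still held 0. Without intervals under 200 bp the HBS1L and MYB window held 12 in place of 18, which was tallied as within 1.5 times the count. Its rank among windows was not recomputed without them. The share of windows that were as empty as BCL11A was 66.9% on chromosome 2, 60.9% on its short arm and 63.4% without those bands, against 65.9%. For ZBTB7A it was 60.8% on chromosome 19, 53.3% on its short arm and 80.5% without those bands, against 81.8%. For HBS1L and MYB the share of windows with as many intervals was 3.6% on chromosome 6, 1.3% on its long arm and 1.19% with intervals within 2 kb joined to 1 site, against 0.868%. Joined at gaps of at most 5 kb, the HBS1L and MYB window had 1 cluster of 3 or more intervals in place of 2. The shares of shared intervals there stayed within their exact intervals under all alternatives run. The alternatives on motifs in intervals and on gene positions were not run, because no hg19 genome or annotation was used. No paired analysis was possible because each factor had 1 library and no group was tested against another. Depth is unknown, so what it limits cannot be stated in numbers.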
